A study of Mus musculus with 8 samples.

Results

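The conjugating (phase II) enzymes of the liver described here are the glutathione S-transferases (Gst), the UDP-glucuronosyltransferases (Ugt) and the cytosolic sulfotransferases (Sult). Members were the protein-coding genes of the GENCODE mouse annotation whose symbol is Gst with a class letter and a number, Ugt1, Ugt2 or Ugt3 with a letter and a number, or Sult with a number, which gave 63 of the 56884 genes counted: 24 Gst, 18 Ugt and 21 Sult genes. No expression value enters this rule. Symbols with a further letter after the number, such as Ugt1a6a, are outside it.

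Liver poly(A) RNA was sequenced from 8 female C57BL/6J mice aged 18 months, with 1 library per mouse (3 DIO and 5 DIO + DHA). All of the mice had been made obese (DIO) by 4 months on a high-fat diet, begun at 2 months of age, with 45% of its energy as lipids, 35% as carbohydrates and 20% as proteins. The DIO group then stayed on that diet, to which the study's methods add the mixture of tocopherols that the oil contains. In the DIO + DHA group a fish oil concentrate rich in docosahexaenoic acid (683.4 mg DHA and 46.7 mg EPA per g) took the place of 15% by weight of the dietary lipids until 18 months. There was no lean group, so the comparison is between the diets in livers of obese, aged females. Adding the oil and taking away the lipids it replaced cannot be told apart.

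Phase II enzymes join a polar group to a molecule so that it can leave the cell and be excreted in bile or urine. Gst enzymes attach glutathione to electrophiles, among them products of lipid peroxidation, Ugt enzymes of the endoplasmic reticulum transfer glucuronic acid from UDP-glucuronate, and Sult enzymes transfer sulfate from PAPS to phenols, steroids, bile acids and amines. Hepatocytes hold these enzymes at high levels, many of the genes lie side by side as duplicated copies, and in mice several Sult2a genes and Sult3a1 are known for higher levels in female than in male liver.

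Promoters are shown for 5 members on which the results turn: Sult2a3 and Sult2a5, genes of the same cluster that were lower in DIO + DHA, Sult2a8 from that cluster, which was not called, Sult3a1, which was higher, and Gsta3, which was lower. Each runs 5′ to 3′ on the gene's own strand from 250 bases before the start site to 50 bases after it, as listed by RefSeq on build GRCm38.p6, which differs from the build of the count tables (GRCm39). The Sult2a3 promoter is chr7:14122999-14123298 (minus strand), Sult2a5 chr7:13623717-13624016 (plus), Sult2a8 chr7:14446538-14446837 (minus), Sult3a1 chr10:33857472-33857771 (plus) and Gsta3 chr1:21240335-21240634 (plus). Capitals mark matches, on either strand, to GTTAAT (a short word rich in A and T) in Sult2a3, Sult2a5 and Gsta3, to TTCNNNGAA (letters bound by STAT factors) in Sult3a1, and to TGACNNNGC (the antioxidant response element core) in Gsta3.
Sult2a3: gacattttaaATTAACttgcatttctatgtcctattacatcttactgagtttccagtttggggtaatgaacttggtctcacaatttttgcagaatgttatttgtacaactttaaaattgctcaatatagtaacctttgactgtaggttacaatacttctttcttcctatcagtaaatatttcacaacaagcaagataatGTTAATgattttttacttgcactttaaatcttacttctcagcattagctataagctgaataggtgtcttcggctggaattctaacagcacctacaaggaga
Sult2a5: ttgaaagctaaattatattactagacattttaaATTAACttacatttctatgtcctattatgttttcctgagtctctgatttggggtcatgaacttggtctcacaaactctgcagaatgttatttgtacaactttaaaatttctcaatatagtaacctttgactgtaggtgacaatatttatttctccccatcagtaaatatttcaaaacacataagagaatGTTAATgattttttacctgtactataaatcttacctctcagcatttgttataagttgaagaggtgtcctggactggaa
Sult2a8: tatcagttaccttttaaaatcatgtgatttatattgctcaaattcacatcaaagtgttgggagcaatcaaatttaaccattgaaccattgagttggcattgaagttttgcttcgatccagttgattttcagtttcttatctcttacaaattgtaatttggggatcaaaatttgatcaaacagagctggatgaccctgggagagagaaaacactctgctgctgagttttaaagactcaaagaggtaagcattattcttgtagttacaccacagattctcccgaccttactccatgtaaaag
Sult3a1: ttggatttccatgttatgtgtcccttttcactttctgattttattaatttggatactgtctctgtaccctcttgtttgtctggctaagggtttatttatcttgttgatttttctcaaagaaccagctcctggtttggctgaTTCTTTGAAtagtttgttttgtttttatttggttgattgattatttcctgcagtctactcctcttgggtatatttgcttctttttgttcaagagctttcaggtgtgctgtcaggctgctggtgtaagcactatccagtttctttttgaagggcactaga
Gsta3: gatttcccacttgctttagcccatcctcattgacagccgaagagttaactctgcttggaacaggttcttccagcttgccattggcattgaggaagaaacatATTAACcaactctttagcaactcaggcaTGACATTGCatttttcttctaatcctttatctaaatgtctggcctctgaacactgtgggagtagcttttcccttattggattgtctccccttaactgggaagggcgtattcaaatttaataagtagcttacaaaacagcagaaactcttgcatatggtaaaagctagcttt

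Sult2a3 and Sult2a5 had 2 GTTAAT matches each, at -240 and -51 and at -217 and -28 from the start site, so that the matches stood 189 bases apart in both. The 2 promoters were 75.9% identical, and they were 53.8% and 51.5% identical to that of Sult2a8, which had no match. RefSeq lists 2 starts for Sult2a8, and only the first listed start of each gene was examined. Identity did not separate the called genes from Sult2a8 in general, since the promoters of Sult2a4 and Sult2a5, both lower, were 53.5% identical. All 4 Sult2a genes that were lower in DIO + DHA and had a promoter in the table (Sult2a3, Sult2a4, Sult2a5 and Sult2a6) carried at least 1 GTTAAT match. Sult2a1 and Sult2a2, also lower, and Sult2a7, which was higher, had no promoter there, so Sult2a8 was the only other gene of the cluster examined. Over all members in the table it was found in 5 of 15 promoters of lower members (33.3%) and in 1 of 5 of higher members (20%), that of Sult1a1. Over the 54 members with a promoter in the table, GTTAAT was found in 7 of 17 Sult promoters (41.2%), 5 of 17 Ugt promoters (29.4%) and 1 of 20 Gst promoters (5%), against 7.2% of all 27025 promoters. Base composition differed too: the median GC content was 40% for Sult, 35.7% for Ugt, 55.5% for Gst and 52.7% for all promoters, and its part in the match rates was not tested. TGACNNNGC occurred in 2 of 54 member promoters (3.7%), Gsta3 and Gstm5, against 12.5% of all. TTCNNNGAA was likewise found in 2 of 54 (3.7%), Sult3a1 and Gsta1, against 8.47% of all. AGGTCA, the nuclear receptor core, was found in 9 of 54 (16.7%) against 16% of all, and 6 of those 9 were Ugt promoters. A match describes the letters only.

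The libraries held 1723800 to 5690347 counts, and DIO replicate 1 was the shallowest. Of the marker lists, the 10 hepatocyte genes, which define the labelled tissue, summed to 109200 to 115900 CPM (counts scaled to a common library size of 1000000) in DIO and 119400 to 131200 in DIO + DHA, and of the 10 genes 2 were higher and 3 lower. The 18 skeletal muscle genes were all higher in DIO + DHA, with a summed level of 40.1 to 45.8 CPM in DIO, where Mb and Casq1 were at 0, and 1398 to 1500 CPM in DIO + DHA. Of 18 squamous epithelium genes, 7 of the 8 tested were higher (sums of 158.9 to 171.6 and 241 to 261 CPM), with Krt13, Krt5, Krt14, Krt15, Lgals7 and Sprr3 among those at 0 in DIO and Krt1 and Crnn at 0 throughout. Perp made up most of both sums, at 158 ± 7.34 CPM in DIO and 190 ± 6.89 CPM in DIO + DHA. Krt13, Krt4, Krt15, Lgals7 and Sprr3 passed the filter on low counts through DIO + DHA alone, the group where they were higher. The same held for the muscle genes Mb, Casq1, Actn3, Atp2a1, Ryr1, Myh2, Myh4 and Tnnc2. The calls of these genes are no support for a change, although they are in the counts over the lists. Among 16 macrophage and Kupffer cell genes, 13 were lower and 1 was higher, with sums of 994.1 to 1090 and 564.2 to 595.7 CPM. Of 10 cholangiocyte genes, 1 of 7 tested was higher (94.48 to 113.6 and 97.43 to 116 CPM), and Cldn4 was at 0. Of the genes tested, 50% of the hepatocyte, 100% of the muscle and 87.5% of the squamous list were called. For the macrophage and cholangiocyte lists the shares were 87.5% and 14.3%. Over all genes tested 15.2% were called, 7.89% higher and 7.28% lower. Leaving the muscle and squamous genes out of the scaling kept all 24 calls of members with a mean of at least 1 CPM. Beyond the scaling, the part of these lists in the results below was not tested. The muscle and squamous sums were higher in every DIO + DHA library than in any DIO library. What goes with those sums and what goes with the diet therefore cannot be told apart. In whole liver fewer cells of a type and less RNA per cell cannot be told apart either.

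Fold changes are log2 of DIO + DHA over DIO with their standard error (SE), and a gene was called at a Benjamini-Hochberg adjusted p under 0.05 over all 12412 genes tested with edgeR's quasi-likelihood test. CPM values are listed for DIO replicates 1, 4 and 5 and for DIO + DHA replicates 1, 2, 4, 5 and 6, in that order, and means are ± SD over those 3 and 5 mice. CPM was not divided by gene length, so levels are compared between groups and not between genes.

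Of the 63 members, 46 had enough counts to be tested, and 25 of those (54.3%) were called, against 15.2% of all genes tested. Of the called members 8 were higher in DIO + DHA, where 7.89% of all genes were higher, and 17 were lower, where 7.28% of all genes were lower. Where the mean level reached 10 CPM or more, 20 of 36 members were called (55.6%), 6 higher and 14 lower, against 20.8% of all such genes. The groups did not overlap in CPM for 22 of the 46 tested members, 20 of them called, against 18.4% of all genes tested. The median log2 fold change of the tested members was -0.13 with a median size of 0.33, beside 0.00 and 0.22 over all genes tested. Members took 0.754 to 0.789% of the counts of a DIO library and 0.694 to 0.711% of a DIO + DHA library, so their share was lower in each DIO + DHA library than in each DIO library.

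By family, 7 Gst members fell and 3 rose among 19 tested, 8 Sult members fell and 3 rose among 16 tested, and 2 Ugt members fell and 2 rose among 11 tested. Median log2 fold changes were -0.14 for Gst, -0.35 for Sult and 0.08 for Ugt. Called members with a change beyond 1 on the log2 scale were Gstm3, Sult1c2 and the sparsely counted Gsta1, which were lower, and Sult3a1, Ugt1a5 and Ugt3a2, which were higher. Untested were 9 members with no count in any library (Gsta5, Gstt4, Sult1c1, Sult6b2, Ugt1a2, Ugt1a8, Ugt1a10, Ugt2a1 and Ugt2a2) and 8 with too few counts (Gsta13, Gsto2, Gstp2, Sult2b1, Sult4a1, Sult6b1, Ugt2b37 and Ugt2b38). Ugt2a1 and Ugt2a2 have 98.83% and 94.49% of their exon bases in other genes too, where reads were not counted, so their 0 does not show absence. In Gsta13 and Gstp2, 80.5% and 81% of the 80-base stretches in the last 500 bases of the transcript also occur in another gene.

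**Figure D1:**
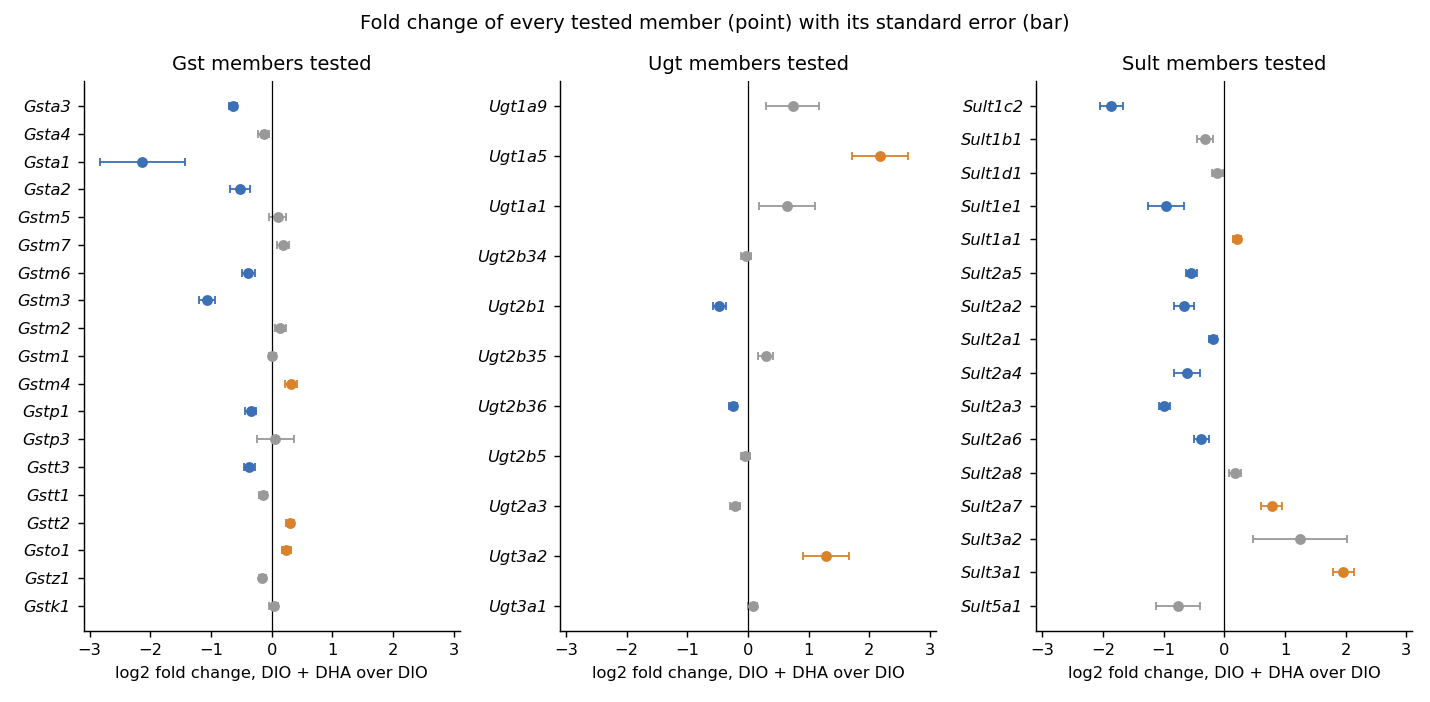
Each point is the log2 fold change (DIO + DHA over DIO) of a tested member and the bar its standard error, with Gst, Ugt and Sult members in 3 panels. Blue points were called lower, orange points higher and grey points were not called. Lower calls outnumber higher calls among Gst (7 against 3) and Sult (8 against 3) but not Ugt members (2 against 2). The 7 include Gsta1, whose call is no support for a change.

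In the alpha class of Gst, which also reduces lipid hydroperoxides, Gsta2 and Gsta3 fell, and the summed level of the class was 943.9 ± 25.93 CPM in DIO and 626.4 ± 60.15 CPM in DIO + DHA, a difference of -33.6%. Gsta3, known for detoxifying the aflatoxin epoxide in mice, held most of those counts, with 886, 861 and 820 CPM in DIO and 560, 528, 537, 486 and 639 CPM in DIO + DHA. Its highest DIO + DHA library lay well below its lowest DIO library, and the log2 fold change was -0.64 (SE 0.07, adjusted p = 6.66e-11). Gsta2 held 17.4, 17.7 and 17.7 CPM in DIO and 12.7, 9.38, 15, 10.1 and 14 CPM in DIO + DHA. The groups were apart, with a log2 fold change of -0.53 (SE 0.16, adjusted p = 0.0187), and the call was lost without DIO replicate 4 (-0.52) or 5 (-0.51) and without DIO + DHA replicate 2 or 5 (-0.47 for each). Gsta4, which conjugates 4-hydroxynonenal, was at 68.5 ± 8.93 and 63.9 ± 3.32 CPM, with overlapping groups and a 95% interval of the log2 fold change from -0.32 to 0.05. Gsta1, with a mean under 1 CPM and named after its values were seen, had 6, 8 and 4 counts in DIO and 1, 0, 0, 2 and 3 in DIO + DHA. It passed the filter on low counts through DIO alone, the group where it was higher. Its call (-2.13, SE 0.70) is therefore no support for a change, although it is in the counts over Gst members and over all members. Of the 80-base stretches (the read length) in the last 500 bases of the transcript, 82.4% in Gsta1 and 19.7% in Gsta2 also occur in another gene, none in Gsta3, and such reads have no unique place.

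The mu class, 7 genes side by side on chromosome 3 (107803137 to 107952210, GRCm39), changed in both directions while its sum stayed at 1499 ± 82.99 and 1510 ± 47.51 CPM. Gstm3 was the member that differed most: 35.4, 36.6 and 30.3 CPM in DIO against 16.7, 15.1, 16.4, 16.9 and 15.3 CPM in DIO + DHA. The 5 DIO + DHA libraries lay close together below the 3 DIO libraries, and Gstm3 fell by 1.07 on the log2 scale (SE 0.13, adjusted p = 2.6e-09). Gstm6 had 46.7, 53.2 and 58.9 CPM in DIO and 46.4, 43.2, 30.7, 43.3 and 40.8 CPM in DIO + DHA. Here the groups all but met, at DIO replicate 1 and DIO + DHA replicate 1, the change was -0.38 (SE 0.11, adjusted p = 0.00839), and without DIO replicate 5 it was -0.29 and not called. Gstm4 rose, from 37.7, 53.7 and 58.4 CPM to 69.0, 58.0, 66.0, 69.6 and 60.9 CPM, with DIO replicate 1 low and the groups overlapping (0.32, SE 0.10, adjusted p = 0.0262). That call was lost without DIO replicate 1 (0.22) or 4 (0.36) and without DIO + DHA replicate 1 (0.29), 4 (0.30) or 5 (0.28). Gstm1, which held most of the counts of the class, was at 1178, 1276 and 1116 CPM in DIO and 1213, 1170, 1147, 1213 and 1247 CPM in DIO + DHA. The ranges overlapped throughout, and the log2 fold change of 0.01 had a 95% interval from -0.12 to 0.14, which leaves no room for a change like that of Gstm3. Gstm2, Gstm5 and Gstm7 were not called either, with log2 fold changes of 0.14, 0.10 and 0.18.

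**Figure D2:**
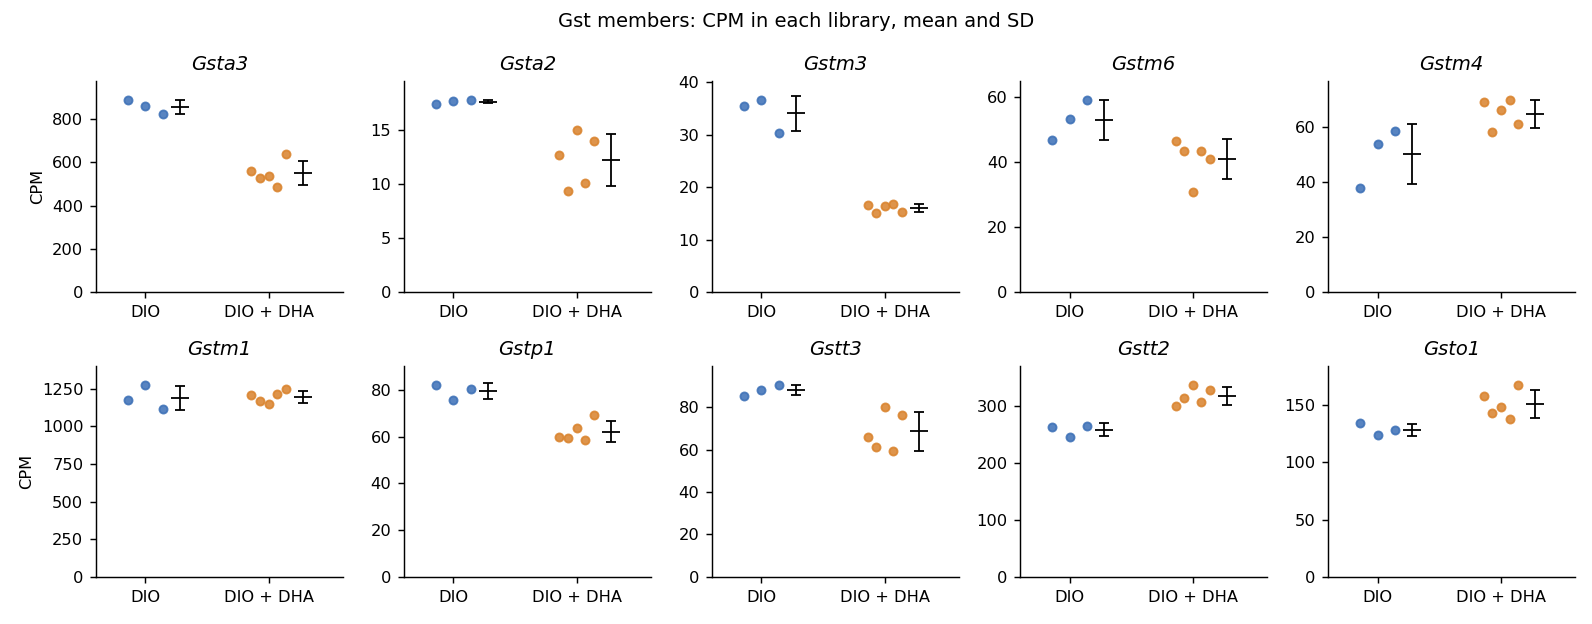
CPM of 10 Gst members in each library (points, DIO blue and DIO + DHA orange), with the mean and SD of the group as a black bar beside them and axes that start at 0. Gsta3 and Gstm3 are apart between groups with a wide gap, Gstm1 overlaps, and Gstt2 is higher while Gstt3 is lower in DIO + DHA.

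The theta genes, which act on small halogenated molecules, lie together on chromosome 10 (75609949 to 75673258) and moved in opposite directions. Gstt2 rose from 264, 246 and 266 CPM to 301, 314, 338, 308 and 329 CPM, with every DIO + DHA library above every DIO library (0.30, SE 0.07, adjusted p = 0.00134). Gstt3 was at 85.5, 88.2 and 90.5 CPM in DIO and at 66.1, 61.3, 79.9, 59.3 and 76.4 CPM in DIO + DHA. Its DIO libraries were close together and all above the others (-0.37, SE 0.09, adjusted p = 0.00275). Gstt1, between them on the chromosome, was at 567, 594 and 626 CPM in DIO and 528, 515, 544, 545 and 571 CPM in DIO + DHA and was not called (-0.14, adjusted p = 0.146), and without DIO replicate 5 the value was -0.09. The class sum was 942.5 ± 35.61 and 927 ± 39.41 CPM.

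Of the other classes, Gstp1, the pi enzyme, was at 82.1, 75.6 and 80.6 CPM in DIO and at 59.7, 59.3, 63.5, 58.5 and 69.4 CPM in DIO + DHA. It fell by 0.35 on the log2 scale without overlap (SE 0.09, adjusted p = 0.00423), although 68.9% of its final 80-base stretches are shared with Gstp2 or a pseudogene. Gsto1, the omega enzyme that reduces dehydroascorbate, rose from 134, 124 and 128 CPM to 158, 143, 148, 138 and 168 CPM. The gap between the groups was small (0.24, SE 0.08, adjusted p = 0.0294), and the call was lost without DIO replicate 4 (0.22) or 5 (0.25) and without DIO + DHA replicate 1 (0.22), 4 (0.24) or 6 (0.195). Gstz1, which isomerises maleylacetoacetate in tyrosine breakdown, was at 811, 794 and 848 CPM in DIO and 695, 720, 783, 724 and 752 CPM in DIO + DHA, without overlap but not called (-0.15, adjusted p = 0.0958). Gstk1, the kappa enzyme of mitochondria and peroxisomes, was at 224, 221 and 222 CPM in DIO and 222, 223, 225, 211 and 253 CPM in DIO + DHA (95% interval -0.11 to 0.18). Without DIO + DHA replicate 6, its highest library, the Gstk1 value was -0.02. Gstp3 was not called (0.06). All Gst members together summed to 4638 ± 45.73 CPM in DIO and 4244 ± 153.8 CPM in DIO + DHA, a difference of -8.48%. The number of Gst members that rose was 1 in place of 3 without DIO replicate 4, DIO + DHA replicate 1 or DIO + DHA replicate 4.

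**Figure D3:**
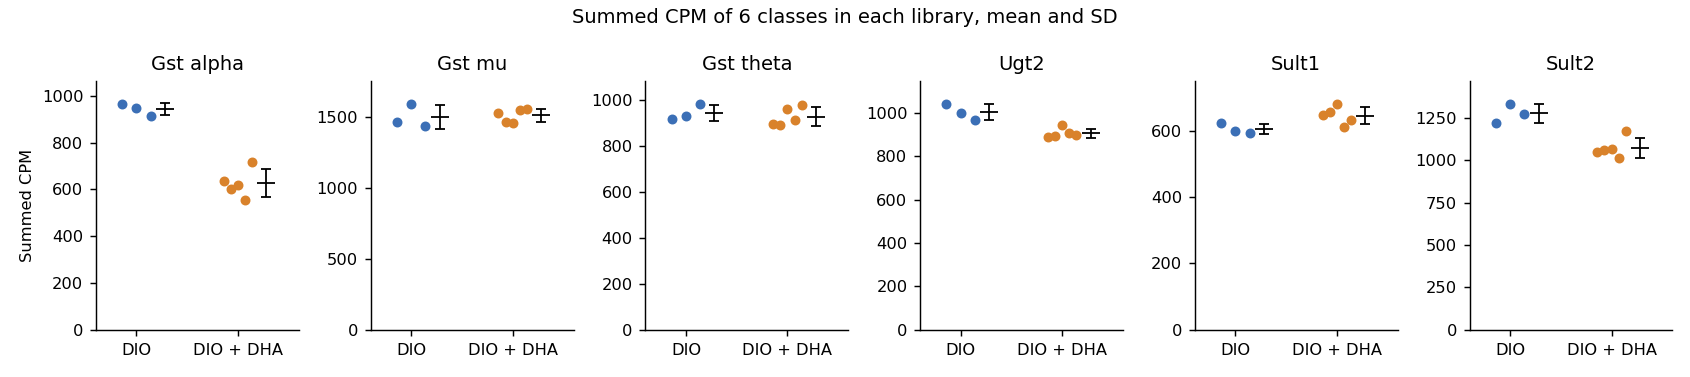
Summed CPM of 6 classes in each library (points, DIO blue and DIO + DHA orange), with the group mean and SD in black and axes that start at 0. The Gst alpha, Ugt2 and Sult2 sums are lower in every DIO + DHA library than in any DIO library, and the Gst mu and Gst theta sums overlap.

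Among the sulfotransferases the Sult2 class, which sulfates hydroxysteroids and bile acids, held 6 of the 8 Sult members that fell. Its 8 Sult2a genes form 1 cluster on chromosome 7 (13357892 to 14228155, GRCm39), in the order Sult2a5, Sult2a2, Sult2a1, Sult2a4, Sult2a3, Sult2a6, Sult2a8 and Sult2a7. The first 6 in this order fell, the seventh was not called and the last rose. The class sum was 1277 ± 56.32 CPM in DIO and 1073 ± 60.03 CPM in DIO + DHA (-15.95%), and Sult2a1 made up most of it.

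Sult2a3 had the largest fold change of the cluster, with 97.9, 114 and 113 CPM in DIO and 54.2, 50.6, 60.7, 52.5 and 58.5 CPM in DIO + DHA. Its level in DIO was 1.99 times that in DIO + DHA, a log2 fold change of -0.99 (SE 0.09, adjusted p = 1.06e-13). Sult2a5 held 74.3, 98.6 and 88.5 CPM in DIO and 58.9, 58.6, 57.1, 59.5 and 69.0 CPM in DIO + DHA. The groups were apart, with DIO + DHA replicate 6 above the other libraries of its group (-0.55, SE 0.09, adjusted p = 7e-06). Sult2a1, the main form by counts, was at 929, 981 and 974 CPM in DIO and 824, 835, 838, 784 and 930 CPM in DIO + DHA. Its groups overlapped at DIO replicate 1 and DIO + DHA replicate 6 and the change was small (-0.19, SE 0.06, adjusted p = 0.0311). The Sult2a1 call was lost without DIO replicate 4 or 5 (-0.17 for each) and without DIO + DHA replicate 1 (-0.19), 2 (-0.19) or 5 (-0.17).

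Sult2a2 held 20.3, 26.1 and 15.4 CPM in DIO and 14.1, 15.8, 9.99, 13.8 and 11.4 CPM in DIO + DHA, with overlap (-0.66, SE 0.17, adjusted p = 0.00292). It depended on DIO replicate 4, the highest library, without which the value was -0.37 and not called. Sult2a4 held 11.8, 13 and 7.45 CPM in DIO and 8.93, 7.37, 6.78, 5.39 and 5.68 CPM in DIO + DHA (-0.61, SE 0.22, adjusted p = 0.044). The groups overlapped, the value was -0.35 without DIO replicate 4, and the call was lost there and without DIO replicate 1 (-0.57) or DIO + DHA replicate 4 (-0.62), 5 (-0.54) or 6 (-0.55). Sult2a6 held 32.6, 33.7 and 26.1 CPM in DIO and 23.2, 22.5, 23.5, 24.1 and 23.6 CPM in DIO + DHA. No libraries overlapped (-0.38, SE 0.13, adjusted p = 0.0313), and the call was lost without DIO replicate 1 (-0.35) or 4 (-0.26) and without DIO + DHA replicate 1 (-0.38) or 2 (-0.37). Sult2a2, Sult2a4 and Sult2a5 share 42%, 11.9% and 37.8% of their final 80-base stretches with other genes of the cluster, and reads from there have no unique place and were not counted, whereas Sult2a3, Sult2a7 and Sult2a8 share none. Over all Sult members, 5 were lower without DIO replicate 1 and 4 without DIO replicate 4, in place of 8.

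At the other end of the cluster, Sult2a7 rose from 11.8, 11.7 and 7.28 CPM to 15.1, 15.1, 17.1, 20.1 and 17.3 CPM. Every DIO + DHA library was above every DIO library (0.78, SE 0.18, adjusted p = 0.00101), and without DIO replicate 5, the lowest, the value was 0.54 and not called. Its neighbour Sult2a8, a bile acid sulfotransferase of mouse liver, was at 47.4 ± 6.60 CPM in DIO and 54.6 ± 2.44 CPM in DIO + DHA, with overlap and a 95% interval from -0.02 to 0.38. That interval excludes a fall like those of the first 6 genes.

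**Figure D4:**
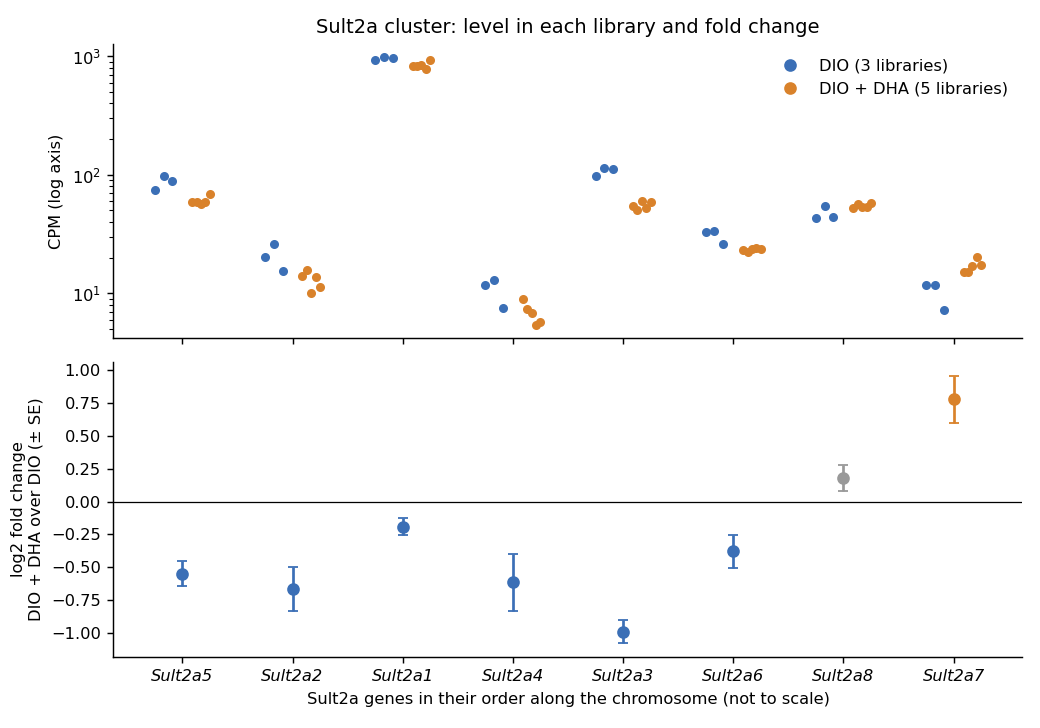
The upper panel gives the CPM of the 8 Sult2a genes in each library on a log axis (DIO blue, DIO + DHA orange), in their order along chromosome 7, and the lower panel the log2 fold change ± SE. The 6 genes from Sult2a5 to Sult2a6 were called lower (blue), Sult2a8 was not called (grey), and Sult2a7 was called higher (orange).

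Outside the cluster, Sult3a1, an amine sulfotransferase, had the smallest adjusted p of all members that rose. It held 7.31, 6.85 and 6.39 CPM in DIO and 24.2, 27.8, 24.3, 29.5 and 25.8 CPM in DIO + DHA. Its level was 3.90 times as high, with a wide gap between the groups (1.96, SE 0.17, adjusted p = 3.8e-14). Sult3a2, next to it on chromosome 10, was at 0.555 ± 0.563 and 0.986 ± 0.675 CPM and was not called (95% interval -0.30 to 2.79).

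In the Sult1 class, Sult1c2, which sulfates phenols, fell from 23.1, 16.0 and 22.7 CPM to 6.55, 6.37, 3.57, 4.45 and 6.11 CPM. No DIO + DHA library came near a DIO library (-1.86, SE 0.19, adjusted p = 1.45e-11). Sult1e1, the estrogen sulfotransferase, held 7.88, 3.97 and 6.03 CPM in DIO and 2.38, 3.02, 3.21, 3.28 and 2.4 CPM in DIO + DHA. The groups were apart but the DIO libraries varied widely (-0.97, SE 0.29, adjusted p = 0.0157), and the call was lost without DIO replicate 1 (-0.82) or 5 (-0.85). Sult1a1, the phenol sulfotransferase that held most counts of the class, rose slightly, from 461, 456 and 457 CPM to 535, 529, 576, 486 and 526 CPM. Its DIO libraries were nearly equal and below all the others (0.21, SE 0.07, adjusted p = 0.022), and the call was lost without DIO replicate 4 (0.22) and without DIO + DHA replicate 1 (0.20) or 4 (0.17). Sult1b1, which acts on thyroid hormones, and Sult1d1, which acts on catecholamines, were not called (-0.32 and -0.12).

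Sult5a1 was at 4.5, 2.88 and 4.08 CPM in DIO and 1.59, 1.01, 4.28, 1.17 and 3.06 CPM in DIO + DHA and was not called (-0.76, adjusted p = 0.175). Sult4a1, known from neurons, had no count in DIO and 7, 1, 1, 5 and 1 counts in DIO + DHA, too few to be tested. Set against the 3 counts that a count of 0 allows over the group, its 15 counts in DIO + DHA gave a ratio of 3.26 after scaling to depth. That ratio leaves out the counting error in DIO + DHA and the spread between mice, so it is no lower bound. All Sult members together summed to 1893 ± 44.17 CPM and 1749 ± 65.69 CPM, a difference of -7.63%.

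**Figure D5:**
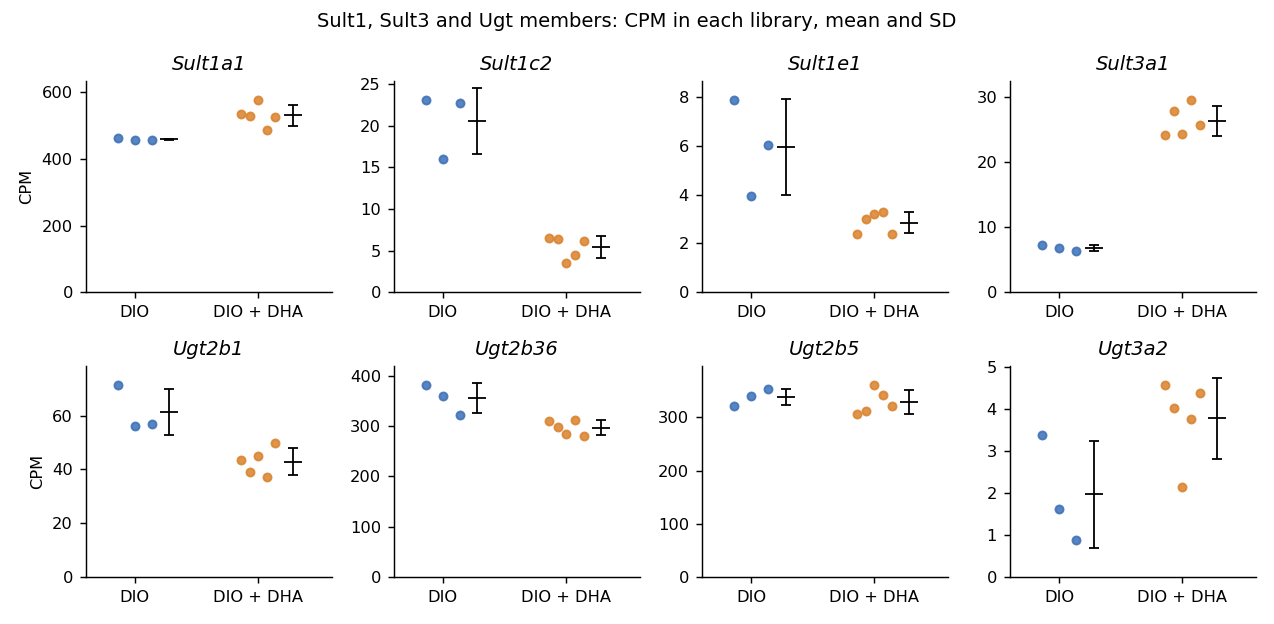
CPM of 4 Sult and 4 Ugt members in each library (points, DIO blue and DIO + DHA orange), with the group mean and SD in black and axes that start at 0. Sult1c2 is lower and Sult3a1 higher in DIO + DHA with wide gaps, Ugt2b1 is lower without overlap, and Ugt2b5 and Ugt3a2 overlap.

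Of the glucuronosyltransferases, 4 of 11 tested were called (36.4%). Ugt2 genes, which act on steroids, bile acids and many drugs, summed to 1002 ± 37.96 CPM in DIO and 905.3 ± 20.88 CPM in DIO + DHA (-9.63%), and 2 of 6 tested fell. Ugt2b1 held 71.4, 56.3 and 56.8 CPM in DIO and 43.6, 38.9, 45.0, 37 and 50.01 CPM in DIO + DHA. All DIO libraries were higher (-0.48, SE 0.11, adjusted p = 5.71e-04). Ugt2b36 held 381, 360 and 322 CPM in DIO and 310, 297, 284, 312 and 280 CPM in DIO + DHA. Its groups were close but apart (-0.25, SE 0.07, adjusted p = 0.00822), and the call was lost without DIO replicate 1 (-0.195) or 4 (-0.23). Ugt2a3 did not overlap either, at 96.1 ± 3.72 and 83.0 ± 4.72 CPM, but was not called (-0.21, adjusted p = 0.0903). Ugt2b5 was at 322, 340 and 353 CPM in DIO and 307, 312, 361, 342 and 322 CPM in DIO + DHA, with overlapping groups and a 95% interval from -0.18 to 0.10. Its value ranged from -0.09 without DIO + DHA replicate 4 to 0.00 without DIO replicate 5. Ugt2b34 and Ugt2b35 were not called (-0.04 and 0.29). The number of Ugt members that fell was 1 in place of 2 without DIO replicate 1 or 4.

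The Ugt1a genes of chromosome 1 (87983110 to 88146726) splice their own first exon to shared later exons, so that 59.18 to 82.69% of a member's exon bases and 100% of its last 500 bases belong to several genes. Reads from there were not counted, and the summed Ugt1 level of 7.39 ± 3.69 CPM in DIO and 13.3 ± 4.20 CPM in DIO + DHA rests on the few reads of the first exons. Ugt1a5 rose from 0.563, 0.902 and 0.887 CPM (1, 5 and 5 counts) to 3.17, 5.36, 2.85, 6.79 and 1.75 CPM (16, 16, 8, 29 and 8 counts). The groups did not overlap, but the DIO + DHA libraries varied widely (2.18, SE 0.46, adjusted p = 2.99e-04). Ugt1a1, the bilirubin enzyme, was at 7.88, 6.13 and 1.42 CPM in DIO and 8.73, 5.36, 8.21, 8.90 and 3.49 CPM in DIO + DHA and was not called (0.65, adjusted p = 0.445). It ranged from 0.08 without DIO replicate 5, the lowest library, to 1.14 without DIO replicate 4, and Ugt1a9 was not called (0.73).

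Ugt3a2, whose human counterpart uses other UDP sugars than glucuronate, rose from 3.38, 1.62 and 0.887 CPM to 4.56, 4.02, 2.14, 3.75 and 4.37 CPM. Its groups overlapped (1.28, SE 0.38, adjusted p = 0.0129), and the call was lost without DIO replicate 4 (1.32) or 5 (0.89). Its neighbour Ugt3a1 was at 139, 160 and 146 CPM in DIO and 160, 168, 151, 156 and 154 CPM in DIO + DHA and was not called (95% interval -0.08 to 0.23). The Ugt3a1 value was 0.05 without DIO replicate 1 and 0.15 without DIO replicate 4. Ugt members as a whole summed to 1160 ± 39.95 and 1080 ± 17.38 CPM (-6.86%), and the number that rose was 1 in place of 2 without DIO replicate 5.

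A list of 22 cofactor genes covered the supply, transport and breakdown of the glutathione, UDP-glucuronate and PAPS used by these enzymes. It also held genes that act on their products. Of 19 tested, 5 were called (26.3%, against 15.2% of all genes tested). Of these, 1 rose and 4 fell, which is no measure of supply. Gsr, which regenerates reduced glutathione, rose from 33.7 ± 4.70 to 42.2 ± 5.63 CPM with overlap (0.36, SE 0.12, adjusted p = 0.0294). Gclm, the modifier subunit of the first enzyme of glutathione synthesis, had the most counts of the list and fell from 164 ± 3.47 to 136 ± 4.52 CPM (-0.27, adjusted p = 0.00808). Slc26a1, a sulfate transporter, fell from 156 ± 21.9 to 113 ± 10.3 CPM (-0.48, adjusted p = 1.33e-05), and Slc35d1, which brings UDP-glucuronate into the endoplasmic reticulum, from 54.8 ± 1.70 to 43.8 ± 4.37 CPM (-0.33, adjusted p = 0.0175). Chac1, which degrades glutathione and is named after its values were seen because it completes the count of 4, fell from 7.83 ± 2.42 to 2.72 ± 0.397 CPM (-1.64, adjusted p = 2.24e-06). Papss2, which makes PAPS in liver, and Ugdh, which makes UDP-glucuronate, had log2 fold changes of -0.04 and -0.01 and were also chosen after their values were seen. No gene of the list was higher without DIO replicate 4, DIO + DHA replicate 2 or DIO + DHA replicate 5, and 2 were without DIO replicate 5, whereas 2 in place of 4 were lower without DIO replicate 4.

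Of 24 tested among 30 other conjugating and related enzymes, 7 fell and 2 rose (37.5% called, against 15.2% of all genes tested). Methyltransferases were among the lower ones: Nnmt (nicotinamide) fell from 657 ± 44.8 to 404 ± 26.8 CPM (-0.70, adjusted p = 1.66e-12), Inmt (indolethylamine) from 333 ± 17.7 to 246 ± 18.4 CPM (-0.43, adjusted p = 4.5e-06) and Hnmt (histamine) from 15.4 ± 0.303 to 9.46 ± 2.27 CPM (-0.72, adjusted p = 0.00308). As3mt, the arsenite methyltransferase, rose from 102 ± 2.86 to 123 ± 8.54 CPM (0.27, adjusted p = 0.0176). Acsm1 and Acsm5, which activate medium-chain and aromatic acids, fell by 0.39 and 0.62 on the log2 scale, and Baat, which joins bile acids to taurine or glycine, fell by 0.26 (adjusted p = 1.46e-04, 2.46e-05 and 0.0163). Ephx2, the soluble epoxide hydrolase, rose from 867 ± 22.1 to 1185 ± 27.6 CPM without overlap (0.45, adjusted p = 6.81e-08). Mgst1, the microsomal glutathione transferase and the gene with most counts of the list, was at 4655 ± 275 and 4964 ± 391 CPM and was not called (95% interval -0.03 to 0.22). The number that rose was 1 in place of 2 without DIO replicate 5 or DIO + DHA replicate 5.

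Of 34 tested among 36 listed regulators of these genes and their partners, 11 fell and 4 rose (44.1% called, against 15.2% of all genes tested). Nr0b2 (SHP, a repressor induced by bile acids) rose from 17.3 ± 3.07 to 38.9 ± 2.03 CPM (1.21, adjusted p = 8.93e-11), Foxa1 from 3.28 ± 0.621 to 6.20 ± 1.05 CPM (0.98, adjusted p = 0.00944), Rora from 34.9 ± 1.97 to 47.3 ± 4.41 CPM (0.42, adjusted p = 0.00384) and Nfe2l2 (NRF2, which acts through antioxidant response elements) from 43.9 ± 1.98 to 53.1 ± 4.98 CPM (0.29, adjusted p = 0.0472). Cebpb fell by 1.05 on the log2 scale, from 195 ± 4.99 to 94.1 ± 5.42 CPM (adjusted p = 5.14e-17), and Hnf4a by 0.53, from 241 ± 11 to 167 ± 10.04 CPM (adjusted p = 7.12e-08). Cux2, a repressor known to be female-specific in mouse liver, was at 15.8, 9.56 and 11.5 CPM in DIO and 2.78, 1.68, 3.21, 5.15 and 5.46 CPM in DIO + DHA, without overlap (-1.60, SE 0.25, adjusted p = 1.22e-06). The xenobiotic and bile acid receptors Nr1i2 (PXR) and Nr1h4 (FXR) fell by 0.46 and 0.40, and Mafg and Bach1, partner and competitor of NRF2, by 0.52 and 0.49 (adjusted p = 6.59e-04, 3.18e-04, 1.14e-04 and 0.0307). The estrogen receptor Esr1 and Por, which passes electrons to cytochrome P450 enzymes and had the most counts of the list, fell by 0.50 and 0.37 (adjusted p = 0.0375 and 1.6e-05). Nr1i3 (CAR), Ahr and Ppara, chosen after their values were seen, were not called, with log2 fold changes of -0.16, -0.33 and -0.18. Without DIO replicate 4 the number that rose was 2 in place of 4, and without DIO replicate 5 the number that fell was 6 in place of 11.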

How the data were processed

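Liver poly(A) RNA libraries of 3 DIO and 5 DIO + DHA mice were 3′-enriched and made with oligo(dT) primers holding a barcode and a unique molecular identifier (UMI). The authors aligned reads to GRCm39 with STAR 2.7.9a and deposited whole-number counts per gene from featureCounts 1.6.0 on GENCODE release M33, without a strand or multi-mapping option, so reads shared between overlapping genes or copies were not counted. Collapsing of UMIs is not given in the sources used here, and the ratio given for a count of 0 covers the counting error of the DIO group only.

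Gene names came from GENCODE release M39 (56323 of 56884 identifiers). Libraries held 1723800 to 5690347 counts (median 4495644), so genes of few CPM are imprecise. Following the study's methods, genes were dropped if, in both groups, over 50% of libraries had fewer than 5 counts. TMM-scaled counts entered the quasi-likelihood test of edgeR 4.0.16 (R 4.3.3) without covariates, p-values were adjusted by Benjamini-Hochberg, and 95% intervals use the degrees of freedom of that fit. The p-values measure the spread between mice. Promoters came from RefSeq (54 of 63 members matched), with the first listed start of each gene, and pairwise identity counts gaps as differences.

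Members described with values in every library were those called with a mean of at least 1 CPM, plus the member of each class with the largest mean CPM. Gsta1 was added after its values were seen. From other lists, called genes averaging 5 CPM or more and the gene with the largest mean were named. A few genes of those lists are counted but not reported here by name. The members and lists were chosen with earlier results of these data known. Alternatives covered scaling, filter, test (DESeq2 1.42.0, limma-voom 3.58.1), replicate number as a block and leaving out each library. The scripts were tested on simulated data.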

Additional observations from a re-analysis of the deposited data

Results flagged for a closer look

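In the 32 groups of 5 DIO + DHA libraries examined, 1 per named member, Sult2a5 in DIO + DHA replicate 6 was at 69.0 CPM, far from the 57.1 to 59.5 CPM of the other libraries of its group. The gap was 0.799 of the group's range, above Dixon's 95% critical value for 5 values, which chance exceeds in about 1 of 20 groups. The Sult2a5 call was kept without that library.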

How the results depend on the processing

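Of the 24 called members with a mean of at least 1 CPM, none changed direction in any of 18 alternatives. The calls of 8 (Gsta3, Gstm3, Gstt2, Sult1c2, Sult2a3, Sult2a5, Sult3a1 and Ugt2b1) held in all of them, and those of 11 in all 8 fits without 1 library. All 24 calls were kept with DESeq2 size factors, library size alone, TMM without muscle and squamous genes, and filterByExpr. Calls were also gained: library size alone called Gstt1 and Gstz1 lower, with 9 Gst members lower in place of 7. With the replicate number as a block, Ugt1a1 was called higher. Kept were 17 with the DESeq2 Wald test, 23 with limma-voom at an adjusted p under 0.05, 9 with limma-voom at B above 0, and 21 without a filter or with at least 10 counts in every library, where 3 gave no value. Over all genes limma-voom at B above 0, the criterion in the study's methods, called 860 in place of 1883.

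Replicate numbers 1, 4 and 5 occurred in both groups. Correlations of same-numbered deviations were -0.0133, -0.0135 and -0.0111, and those of differently numbered ones lay between -0.0593 and 0.0621. So few pairs cannot show or exclude a pairing of the mice. With the replicate number as a block, 16 of 24 calls were kept, 5 in place of 8 Sult members and 1 in place of 2 Ugt members were lower, and no cofactor gene (0) was higher.

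The DESeq2 Wald test gave 1 Gst and 1 Ugt member higher, 5 Sult members lower, 0 cofactor genes higher and 2 regulators higher. Limma-voom at B above 0 gave 1 Gst and 0 Ugt members higher, with 2 Gst, 3 Sult and 1 Ugt member lower. It also gave 0 cofactor genes higher and 2 lower, 1 other enzyme higher and 4 lower, and 1 regulator higher and 6 lower. Library size alone gave 0 cofactor genes higher, no filter 5 Sult members lower, and at least 10 counts in every library 0 Ugt members higher.

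Without 1 library at a time, the counts higher and lower ranged from 1 to 3 and 5 to 7 for Gst. They ranged from 2 to 4 and 4 to 7 (Sult) and from 1 to 2 and 1 to 2 (Ugt). For the other lists they were 0 to 2 and 2 to 5 (cofactor genes), 1 to 2 and 6 to 7 (other enzymes) and 2 to 5 and 6 to 11 (regulators). The uncalled Gstk1 turned to -0.0179 with the block and -0.017 without DIO + DHA replicate 6, and the uncalled Gstm1 to -0.014 with library size alone, -0.0253 without DIO replicate 5 and -0.00963 without DIO + DHA replicate 6. Without 1 library at a time they ranged from -0.017 to 0.0534 (Gstk1) and from -0.0253 to 0.0729 (Gstm1). The cause of these changes was not tested.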
